A study of Homo sapiens with 9 samples.

Results

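The mevalonate and squalene arm of cholesterol synthesis was described through 9 genes, namely HMGCS1, MVK, PMVK, MVD, IDI1, FDPS, FDFT1, SQLE and LSS, taken by name and ordered by their step from acetyl-CoA to lanosterol. All 9 were among the 22587 genes of the deposited table, and all 9 passed the filter on low values that left 11880 genes for testing. The cells were HepG2, an established human liver tumor line, grown in high-glucose DMEM with fetal bovine serum. Total RNA was sequenced from 3 libraries with Gln added, 3 libraries after 12 h of Gln deprivation and 3 libraries after 24 h of Gln deprivation, and the labels name no other agent, allele or knockdown for these groups. GlutaMAX, a stable dipeptide form of Gln, is the treatment listed for the libraries with Gln added, whereas the text on treatment puts it into the Gln-free medium, so the exact medium of each group rests on the labels. All groups come from 1 cell line, and nothing in the labels says that the 3 libraries of a group came from separate cultures, so p-values measure the spread between these libraries, which may be technical.

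The mevalonate pathway builds the isoprene unit of sterols from acetyl-CoA. HMGCS1 condenses acetyl-CoA with acetoacetyl-CoA, MVK and PMVK phosphorylate mevalonate in turn, MVD removes carbon dioxide to give isopentenyl diphosphate, and IDI1 turns that unit into its isomer. FDPS then joins the units into farnesyl diphosphate, FDFT1 couples a pair of these into squalene, and SQLE and LSS oxidize and cyclize squalene into lanosterol, the first sterol of the route. In liver cells these genes are known to be transcribed together under the sterol-regulated factor encoded by SREBF2. That factor acts at promoters that often also hold boxes for NF-Y and SP1.

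The start regions of 4 members are shown, with the NF-Y box, CCAAT on either strand, set in capitals. They were picked as examples because their measured responses and their numbers of boxes differ, so they cannot show whether both go together. Each is 300 bases long, with 250 bases before the annotated start and 50 bases from it on, written 5′ to 3′ on the strand of the gene. Those of MVK (chr12:109573544-109573843, plus strand), MVD (chr16:88663042-88663341, minus strand) and PMVK (chr1:154936670-154936969, minus strand) are RefSeq promoters on GRCh38.p14. RefSeq places the IDI1 start at another position than GENCODE, and the window shown for IDI1 (chr10:1049070-1049369, minus strand) was read from GRCh38 at the GENCODE start. The starts of HMGCS1, MVK, MVD, FDPS and LSS also differ between both annotations, while that of PMVK is the same. For MVK the GENCODE gene starts at chr12:109573255, before the window shown. Of these members only IDI1 was also searched at its GENCODE start.
MVK: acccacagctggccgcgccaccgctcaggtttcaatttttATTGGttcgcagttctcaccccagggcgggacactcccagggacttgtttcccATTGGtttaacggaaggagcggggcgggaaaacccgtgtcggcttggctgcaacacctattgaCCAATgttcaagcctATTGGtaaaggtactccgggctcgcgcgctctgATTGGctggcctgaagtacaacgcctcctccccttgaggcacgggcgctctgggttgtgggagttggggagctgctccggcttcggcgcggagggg
MVD: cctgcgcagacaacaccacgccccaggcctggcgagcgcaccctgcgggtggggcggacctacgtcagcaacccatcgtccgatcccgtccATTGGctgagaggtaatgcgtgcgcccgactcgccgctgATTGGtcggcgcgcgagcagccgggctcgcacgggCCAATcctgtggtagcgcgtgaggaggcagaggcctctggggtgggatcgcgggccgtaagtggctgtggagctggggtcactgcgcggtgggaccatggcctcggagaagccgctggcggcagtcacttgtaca
IDI1: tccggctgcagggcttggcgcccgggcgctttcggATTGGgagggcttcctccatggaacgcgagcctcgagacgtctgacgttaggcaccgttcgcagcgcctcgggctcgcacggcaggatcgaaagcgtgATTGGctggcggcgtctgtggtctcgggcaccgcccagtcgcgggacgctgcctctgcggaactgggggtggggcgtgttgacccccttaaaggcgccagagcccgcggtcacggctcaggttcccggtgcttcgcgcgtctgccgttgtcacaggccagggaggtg
PMVK: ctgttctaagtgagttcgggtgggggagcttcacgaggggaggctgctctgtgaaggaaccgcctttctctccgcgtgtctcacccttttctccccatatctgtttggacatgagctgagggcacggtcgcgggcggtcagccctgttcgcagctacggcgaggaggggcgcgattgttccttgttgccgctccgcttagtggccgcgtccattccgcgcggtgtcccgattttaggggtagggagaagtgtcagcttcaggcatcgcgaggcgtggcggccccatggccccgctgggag

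Of the 9 members, 7 had a promoter in the RefSeq table (HMGCS1, MVK, PMVK, MVD, IDI1, FDPS and LSS), and FDFT1 and SQLE had no entry. At least 1 NF-Y box was found in 5 of the 7, against 35.7% of the 27305 promoters searched in the same way. MVK held 5 of these boxes between bases -210 and -42 from its RefSeq start, a number reached by 0.403% of all promoters. The window at the GENCODE start of MVK was not searched. MVD and FDPS held 3 each, which 3.42% of all promoters reached. HMGCS1 held 2, which 11.3% of all promoters reached, and LSS held 1. PMVK had none in the window printed above, and IDI1 had none at its RefSeq start (chr10:1056655-1056954) but 2 at its GENCODE start. The SP1 box GGGCGG was present in 7 of 7, against 44.6% of all promoters, and the E-box CACGTG in 1 of 7 (LSS), against 7.43%. The sterol element core CACCCCAC occurred in 0 of 7 and in 2.72% of all promoters, and the longer form TCACNCCAC, which includes it when its free base is C, in 0 of 7 and in 1.15%. Both strands were searched for each motif, and a match or its absence describes these letters in these windows and not the binding of a factor. The members with printed start regions were picked as examples. Whether the number of NF-Y boxes goes with the size of the fall was not tested.

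The values were FPKM, which divide the fragments of a gene by its length and by the size of the library. From 29618771 to 36258403 fragments per library fell on genes, and the levels of the members rested on between 353 fragments (PMVK, 12 h, replicate 1) and 13844 fragments (HMGCS1, Gln added, replicate 1). Of the hepatocyte-lineage markers ALB, AFP, TTR, SERPINA1, APOA1 and HNF4A, 6 of 6 were present in each library, at 14.7 FPKM or more. With Gln added their summed level was 6475 to 6569 FPKM, and it was 5547 to 5629 FPKM at 12 h and 5350 to 5713 FPKM at 24 h. Of 5 measured markers of blood, endothelium and fibroblasts, PECAM1, VWF, COL1A1 and DCN stayed under 1 FPKM throughout, and CD68 averaged 36.1 FPKM with Gln added, 29.6 FPKM at 12 h and 22.9 FPKM at 24 h, while PTPRC was not analysed here. The part of these differences in the results on the members was not tested.

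Every member of the arm was lower after Gln deprivation, at 12 h and at 24 h. In each of the 9 the highest deprived library lay below the lowest library with Gln added. How many of all genes tested separate in this way was not counted, so this is not read as particular to the members. Summed over the members, the level was 534 ± 6.13 FPKM (SD, n = 3) with Gln added, 165 ± 1.69 FPKM after 12 h and 164 ± 5.22 FPKM after 24 h, that is 30.9% and 30.7% of the level with Gln added. The members' fragments made up 0.198% ± 0.00203 of all fragments on genes with Gln added, 0.0557% ± 0.000742 after 12 h and 0.0576% ± 0.00146 after 24 h. In a bulk sample fewer cells that express a gene and less RNA of it per cell cannot be told apart.

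With limma and an adjusted p under 0.05, 9 of 9 members were lower and 0 were higher at 12 h, where 31% of all genes tested were lower and 29.1% were higher. At 24 h 9 of 9 were again lower and 0 higher, against 31.7% lower and 33% higher among all genes tested. The median log2 fold change of the members on the log2(FPKM + 0.1) scale was -1.81 at both times, beside medians of all genes of -0.02 at 12 h and 0.01 at 24 h. With so many genes called in both directions, the count of calls is read beside the size of the falls. A log2 fold change below -1 was reached by 8 of the 9 members at each time, and by 2.02% of all genes (240) at 12 h and 2.85% (338) at 24 h. Both comparisons use the same 3 libraries with Gln added, so they are not independent of each other.

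**Figure D1:**
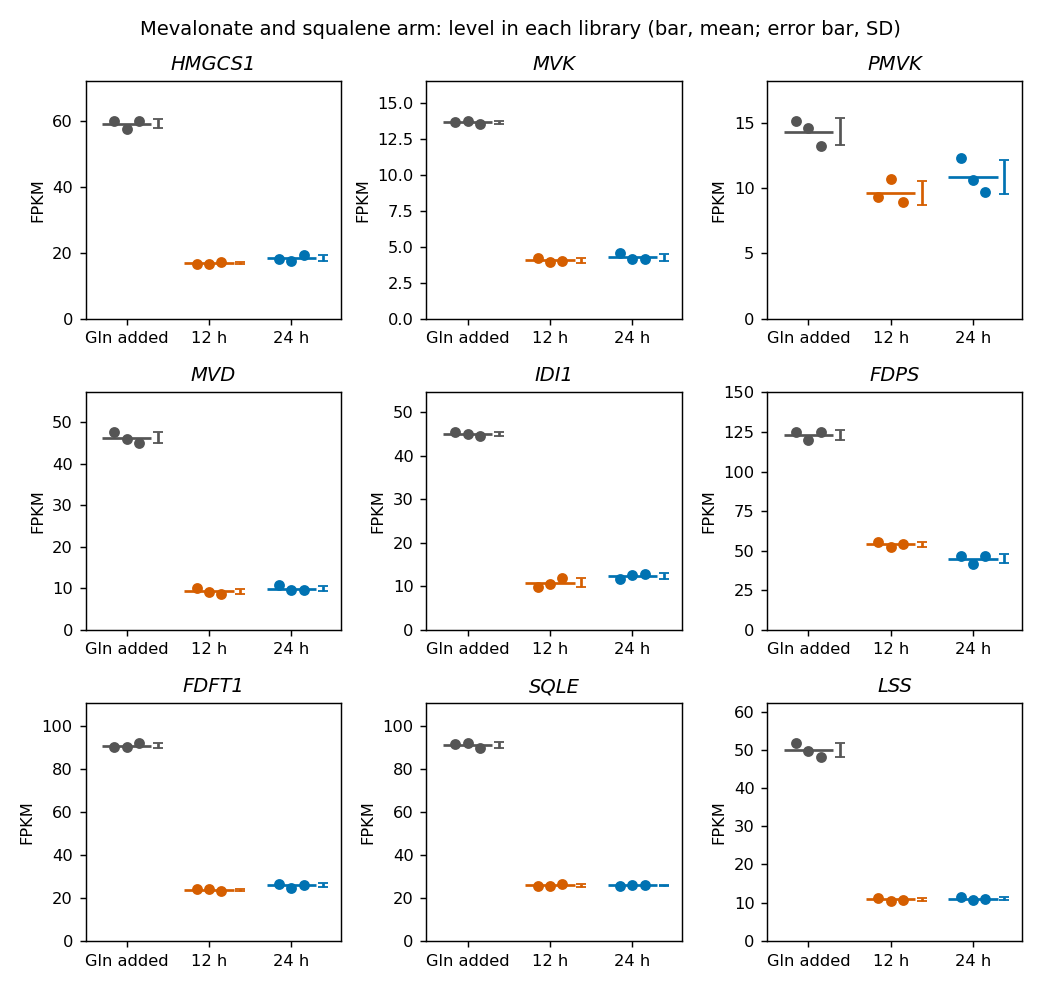
Level of each member in FPKM (vertical axes, from 0) in the 3 libraries of each group, with the times of Gln deprivation on the horizontal axes; points are libraries, bars are means and error bars are SD. All deprived libraries lie below all libraries with Gln added in each panel, with the smallest gap in PMVK, and FDPS shows a further drop from 12 h to 24 h.

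HMGCS1 (chr5:43287470-43313512, minus strand, GRCh38 as for the positions that follow), the cytosolic synthase that opens the pathway, was at 60.0, 57.7 and 60.2 FPKM with Gln added, 16.7, 16.5 and 17.1 FPKM at 12 h and 18.2, 17.6 and 19.4 FPKM at 24 h. Relative to Gln added, the deprived libraries kept 28.3% of the level at 12 h and 31.0% at 24 h. Its log2 fold change was -1.81 (95% interval -1.91 to -1.72) at 12 h and -1.69 (-1.78 to -1.59) at 24 h. On the opposite strand an unnamed gene covers 37.7% of its exonic bases, and whether the counting used the strand is not given in the sources used here, so its reads could in part come from that gene.

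MVK (chr12:109573255-109598125, plus strand), the first of the kinases of mevalonate, was at 13.6, 13.7 and 13.5 FPKM with Gln added, 4.24, 3.93 and 3.97 FPKM at 12 h and 4.54, 4.15 and 4.11 FPKM at 24 h. The libraries with Gln added hardly differed from each other, with an SD of 0.103 FPKM around a mean of 13.6 FPKM. The log2 fold change was -1.73 (SE 0.05) at 12 h and -1.65 (SE 0.05) at 24 h.

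PMVK (chr1:154924740-154936719, minus strand), which adds the next phosphate, responded least. Its level was 15.2, 14.7 and 13.2 FPKM with Gln added, 9.30, 10.7 and 8.97 FPKM at 12 h and 12.3, 10.6 and 9.69 FPKM at 24 h. Neither deprived group overlapped the libraries with Gln added, although the lowest library with Gln added (13.2 FPKM) and the highest at 24 h (12.3 FPKM) lay close together. Relative to Gln added, PMVK kept 67.3% of its level at 12 h and 75.7% at 24 h, with log2 fold changes of -0.57 (95% interval -0.78 to -0.36, limma adjusted p = 0.000369) and -0.40 (-0.61 to -0.20, limma adjusted p = 0.00301). Neither interval overlaps that of another member at the same time. PMVK also had the fewest fragments of the members, from 353 to 695 per library, and the largest coefficient of variation between replicates in 2 of the 3 groups, 7.06% with Gln added and 12.2% at 24 h.

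MVD (chr16:88651935-88663161, minus strand), the decarboxylase that yields isopentenyl diphosphate, fell furthest. Its level was 47.7, 46.0 and 45.0 FPKM with Gln added, 10.0, 9.07 and 8.68 FPKM at 12 h and 10.7, 9.62 and 9.48 FPKM at 24 h, so that the deprived cells were 5.00-fold and 4.65-fold lower. At 12 h its log2 fold change of -2.31 (95% interval -2.45 to -2.17) was the lowest of the 11880 genes tested, and at 24 h, at -2.21 (-2.35 to -2.07), it had rank 10 from the lowest.

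IDI1 (chr10:1039152-1049119, minus strand), the isomerase, was at 45.5, 44.9 and 44.5 FPKM with Gln added, close to MVD. At 12 h its libraries were at 9.92, 10.5 and 12.0 FPKM and at 24 h at 11.7, 12.6 and 12.9 FPKM. The ranges at 12 h and 24 h overlapped, while both stood far below the libraries with Gln added. Its log2 fold change was -2.05 (SE 0.07) at 12 h and -1.85 (SE 0.07) at 24 h. The antisense gene IDI2-AS1, whose exons overlap those of IDI1 in part, was at 0.106 to 1.25 FPKM. GENCODE lists 3 pseudogenes of IDI1 and 8 of FDPS, none of which has a row of its own in the table, so reads shared with these copies make both genes' levels uncertain.

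FDPS (chr1:155308748-155320666, plus strand), which makes farnesyl diphosphate for sterols as well as for protein prenylation, dolichol and ubiquinone, was the most abundant member per length. It was at 125, 119.7 and 125 FPKM with Gln added, 55.3, 52.5 and 54.1 FPKM at 12 h and 46.7, 41.8 and 46.6 FPKM at 24 h. The 3 groups were ordered without overlap, and FDPS was the one member whose 24 h libraries were all below its 12 h libraries. In HMGCS1 and FDFT1 the 24 h libraries were all above the 12 h libraries. For FDPS the fall was seen at both times. FDPS kept 43.8% of its level at 12 h and 36.6% at 24 h, with log2 fold changes of -1.19 (95% interval -1.29 to -1.09) and -1.45 (-1.55 to -1.35). Its interval at 12 h overlaps that of no other member, while its interval at 24 h overlaps that of MVK (-1.78 to -1.53). The antisense gene RUSC1-AS1, which covers 18.6% of its exonic bases, was itself at 0.405 to 2.88 FPKM.

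FDFT1 (chr8:11795573-11839395, plus strand), squalene synthase and the first step committed to sterols, was at 89.8, 90.1 and 91.9 FPKM with Gln added, 23.9, 23.9 and 23.3 FPKM at 12 h and 26.6, 24.8 and 26.1 FPKM at 24 h. SQLE (chr8:124998497-125022283, plus strand), the epoxidase that follows it, was at 91.7, 92.3 and 89.8 FPKM with Gln added, 25.7, 25.4 and 26.5 FPKM at 12 h and 25.7, 26.1 and 26.0 FPKM at 24 h. Both genes thus had nearly equal levels per length in each group, with falls of 3.83-fold and 3.52-fold at 12 h and of 3.51-fold and 3.52-fold at 24 h. SQLE had the smallest standard error of the members, 0.03, around a log2 fold change of -1.81 at both times.

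LSS (chr21:46188141-46228824, minus strand), the cyclase that closes the sterol ring system, was at 51.8, 49.8 and 48.2 FPKM with Gln added, 11.3, 10.5 and 10.7 FPKM at 12 h and 11.6, 10.7 and 11.0 FPKM at 24 h. Its deprived libraries were 4.60-fold and 4.50-fold lower. At 12 h its log2 fold change of -2.19 (95% interval -2.30 to -2.09) had rank 3 from the lowest of all genes, and at 24 h, at -2.16 (-2.27 to -2.06), rank 12. Opposite-strand exons cover 7.88% of the exonic bases of LSS and 4.27% of those of FDFT1.

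**Figure D2:**
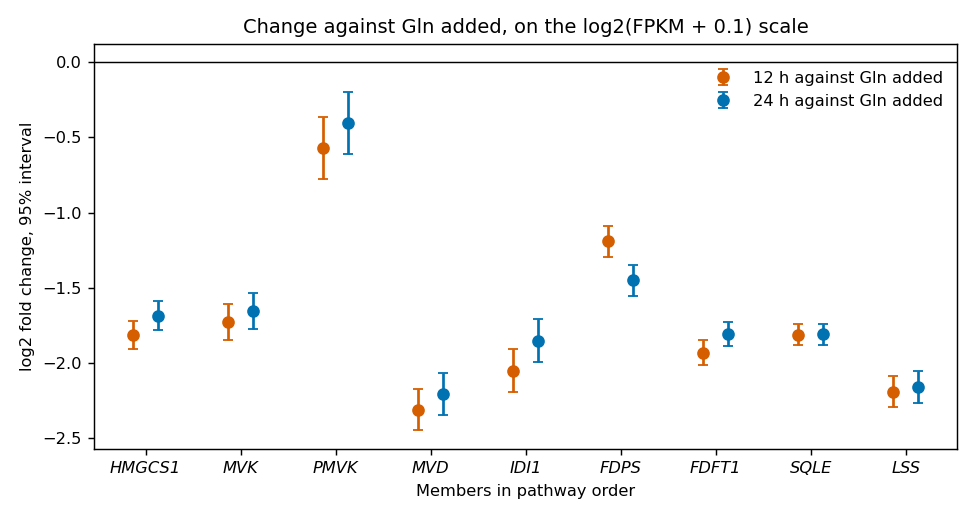
Difference from Gln added in log2(FPKM + 0.1) (vertical axis) for the 9 members in pathway order (horizontal axis) at 12 h (orange) and 24 h (blue); bars are 95% intervals from limma. PMVK (-0.57 and -0.40) and FDPS (-1.19 and -1.45) stand above the other 7 members, whose values lie between -2.31 and -1.65. At 24 h the intervals of FDPS and MVK overlap.

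The falls did not follow the order of the steps. The deepest falls were those of MVD, LSS and IDI1 at both times, while HMGCS1, MVK, FDFT1 and SQLE lay between -1.93 and -1.73 at 12 h, and from -1.81 to -1.65 at 24 h. Among all genes tested, the ranks from the lowest at 12 h were 1 for MVD, 3 for LSS, 8 for IDI1, 12 for FDFT1, 18 for HMGCS1, 19 for SQLE, 27 for MVK, 130 for FDPS and 1078 for PMVK. At 24 h the ranks were 10 for MVD, 12 for LSS, 24 for IDI1, 28 for SQLE, 31 for FDFT1, 43 for HMGCS1, 47 for MVK, 91 for FDPS and 2018 for PMVK. Thus 7 of the 9 members were among the 49 genes with a log2 fold change below -1.5 at 12 h and among the 77 such genes at 24 h. For single members the two-sided exact permutation test of 3 libraries against 3 gave p = 0.1 for 9 of 9 members at both times, the smallest p this design allows. That value only restates that the groups do not overlap, and the test was not run on other genes.

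**Figure D3:**
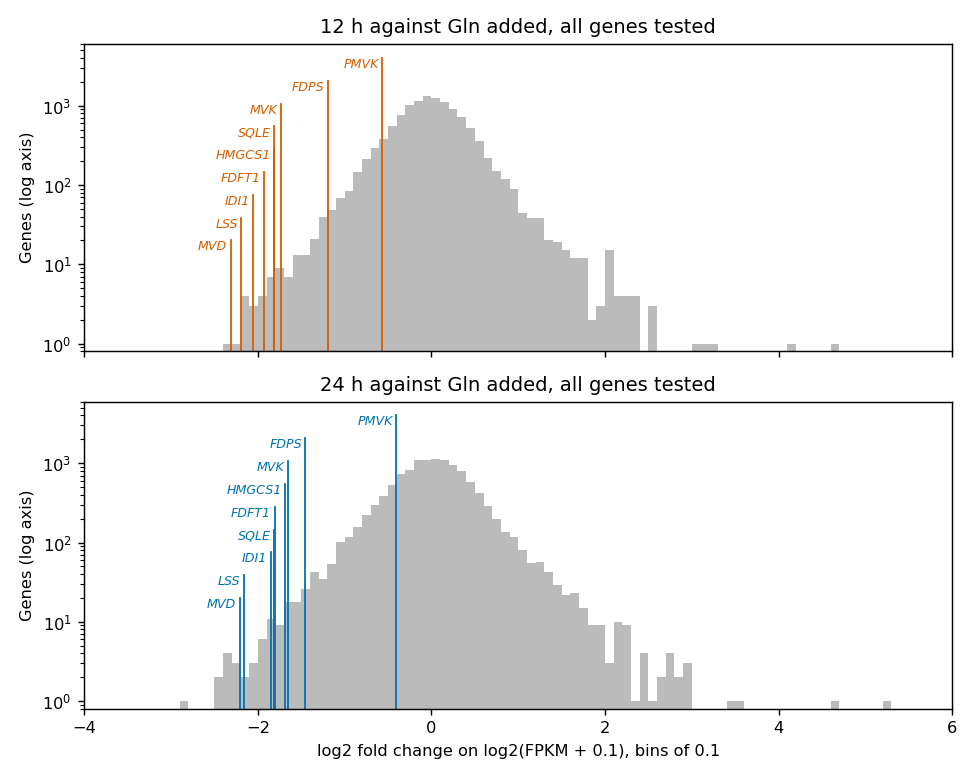
Distribution of the log2 fold changes of the 11880 genes tested (grey, bins of 0.1, number of genes on a log axis) at 12 h (top) and 24 h (bottom) against Gln added, with a vertical line at each member; the heights of these lines only separate the labels. At both times 8 of the 9 members lie below -1, in the thin left tail. PMVK lies to the right of that tail, at rank 1078 from the lowest at 12 h and 2018 at 24 h.

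Between the times of deprivation the arm changed little, and the counts of calls were near the shares of all genes tested. FDPS was lower at 24 h than at 12 h by a log2 difference of -0.26 (SE 0.05, limma adjusted p = 0.00321), and FDFT1 was higher by 0.12 (SE 0.04, limma adjusted p = 0.0371). The count of members was therefore 1 of 9 lower, against 10.5% of all genes tested, and 1 of 9 higher, against 9.57%. The fall of FDPS was called under 19 of 19 alternatives of processing, whereas the rise of FDFT1 was called under 8 of 19. Leaving out any single library other than replicate 2 at 24 h ended the call for FDFT1, with log2 differences from 0.10 to 0.13.

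The other 7 members did not pass the test between the times. HMGCS1 (0.13, 95% interval 0.03 to 0.22, limma adjusted p = 0.0591) and IDI1 (0.20, 0.06 to 0.34, limma adjusted p = 0.0534) came close to the threshold. HMGCS1 passed it without replicate 2 at 24 h (0.16), and IDI1 passed it without replicate 3 at 12 h (0.28) or without replicate 1 at 24 h (0.24). The difference was 0.16 (-0.04 to 0.37) for PMVK, 0.10 (-0.03 to 0.24) for MVD and 0.07 (-0.05 to 0.19) for MVK. SQLE (0.00, -0.07 to 0.07) and LSS (0.03, -0.07 to 0.13) lay closest to 0.

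**Figure D4:**
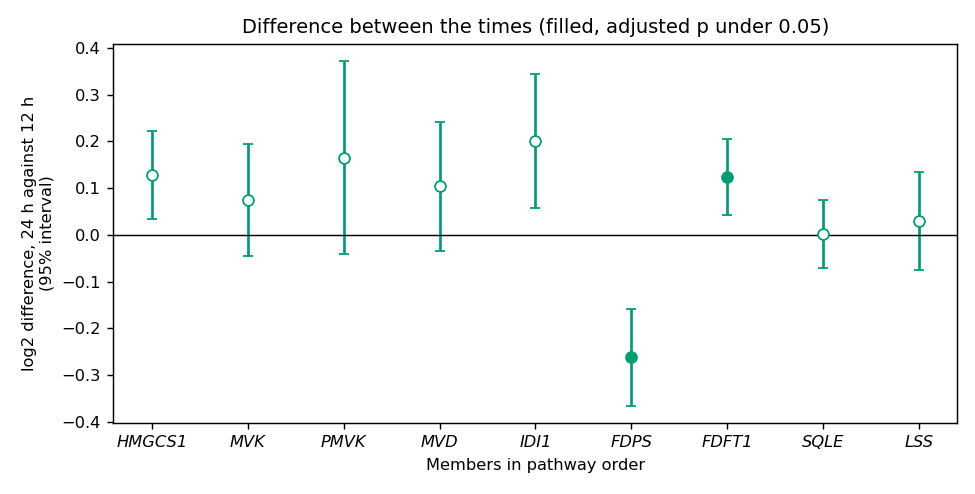
Log2 difference of 24 h against 12 h of Gln deprivation on the log2(FPKM + 0.1) scale (vertical axis) for the 9 members in pathway order (horizontal axis), with 95% intervals; filled points passed an adjusted p under 0.05. FDPS at -0.26 is the one member below 0, and FDFT1 at 0.12 is the other filled point.

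The order of the levels per length changed with deprivation. With Gln added it was FDPS, SQLE, FDFT1, HMGCS1, LSS, MVD, IDI1, PMVK and MVK from the highest to the lowest, and the ranges of SQLE and FDFT1, of MVD and IDI1, and of PMVK and MVK overlapped. In the deprived libraries FDPS, SQLE, FDFT1 and HMGCS1 kept the first 4 places and MVK the last. LSS, IDI1, PMVK and MVD, which spanned 14.4 to 49.9 FPKM in mean level with Gln added, were within 9.25 to 10.9 FPKM at 12 h and 9.94 to 12.4 FPKM at 24 h. In that range the libraries of several members overlapped, PMVK with each of LSS, IDI1 and MVD at both times among them, so the order of these 4 is not resolved throughout.

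As a share of the summed level of the members, FDPS went from 23.1% ± 0.428 (SD, n = 3) to 32.7% ± 0.525 after 12 h and 27.5% ± 0.909 after 24 h. PMVK went from 2.69% ± 0.175 to 5.86% ± 0.620 and 6.63% ± 0.729, and MVD from 8.67% ± 0.178 to 5.61% ± 0.384 and 6.07% ± 0.322. Thus the deprived cells retained relatively more mRNA of FDPS and PMVK and relatively less of MVD within the arm, as described by these shares without a test.

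The other genes around the pathway were taken as 4 lists. Their counts stand beside the shares of all genes tested, of which 31% were lower and 29.1% higher at 12 h (median log2 fold change -0.02) and 31.7% lower and 33% higher at 24 h (median 0.01). All 10 of 10 genes from lanosterol to cholesterol were lower at 12 h (median log2 fold change -1.20) and 10 of 10 at 24 h (median -1.35). HSD17B7, a 3-ketosteroid reductase of the demethylation steps, fell from 15.9 ± 0.396 FPKM to 3.76 ± 0.773 FPKM at 12 h (log2 fold change -2.07), MSMO1, the sterol methyl oxidase, fell by 2.00 on the log2 scale, and DHCR7, which makes cholesterol from its dehydro precursor, fell by 2.02 at 24 h. The weakest change at 12 h was that of LBR, a sterol reductase that is also a protein of the nuclear envelope (-0.25). The call for LBR at 12 h held under 12 of 19 alternatives and was lost without replicate 1 or 3 with Gln added (-0.20, -0.24) or without replicate 1 or 2 at 12 h (-0.20, -0.23).

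Of the genes that supply or use acetyl-CoA and HMG-CoA outside the arm, 5 of 6 tested were lower and 0 higher at 12 h (median -0.58), and 4 of 6 were lower and 0 higher at 24 h (median -0.65), where 31% and 31.7% of all genes tested were lower. ACAT2, the cytosolic thiolase that makes acetoacetyl-CoA for HMGCS1, fell from 165 ± 1.93 FPKM to 51.1 ± 0.879 FPKM at 12 h and 43.5 ± 2.44 FPKM at 24 h, log2 fold changes of -1.69 and -1.92. ACSS2, which activates acetate, had log2 fold changes of -1.32 and -1.43.

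The isoprenoid branches that leave at farnesyl diphosphate had counts close to those of all genes. Of 18 genes of prenylation, dolichol and ubiquinone synthesis, 5 were lower, 6 higher and 7 not called at 12 h (median -0.01), and 6 were lower, 6 higher and 6 not called at 24 h (median -0.04). Among all genes tested 31% were lower and 29.1% higher at 12 h, and 31.7% and 33% at 24 h. SRD5A3, a reductase of dolichol synthesis, had log2 fold changes of -0.54 and -0.69, and NUS1, a subunit of the dolichol chain synthase, of -0.44 and -0.33. FNTA, the subunit shared by the farnesyl and geranylgeranyl transferases, rose by 0.60 and 0.63. COQ2, which attaches the isoprenoid tail of ubiquinone, was at -0.05 at 12 h, where it was not called, and at -0.57 at 24 h.

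Of 8 measured genes of SREBP regulation and cholesterol handling, 4 were lower and 2 higher at 12 h (median -0.05), and 3 were lower and 4 higher at 24 h (median 0.12). With 8 genes these counts are near the shares of all genes tested, 31% lower and 29.1% higher at 12 h and 31.7% lower and 33% higher at 24 h. The 4 lower at 12 h became 2 without replicate 1 or 2 with Gln added or without replicate 3 at 12 h. SREBF2, which encodes the factor known to drive the arm, fell from 35.7 ± 0.571 FPKM to 22.6 ± 0.905 FPKM at 12 h and 20.1 ± 0.301 FPKM at 24 h, log2 fold changes of -0.65 and -0.82. STARD4, a cholesterol transfer protein, had log2 fold changes of -1.56 and -1.38, and MBTPS1, a protease that processes the SREBP precursor, rose by 0.43 and 0.57. A ninth gene of this list was not analysed here.

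**Figure D5:**
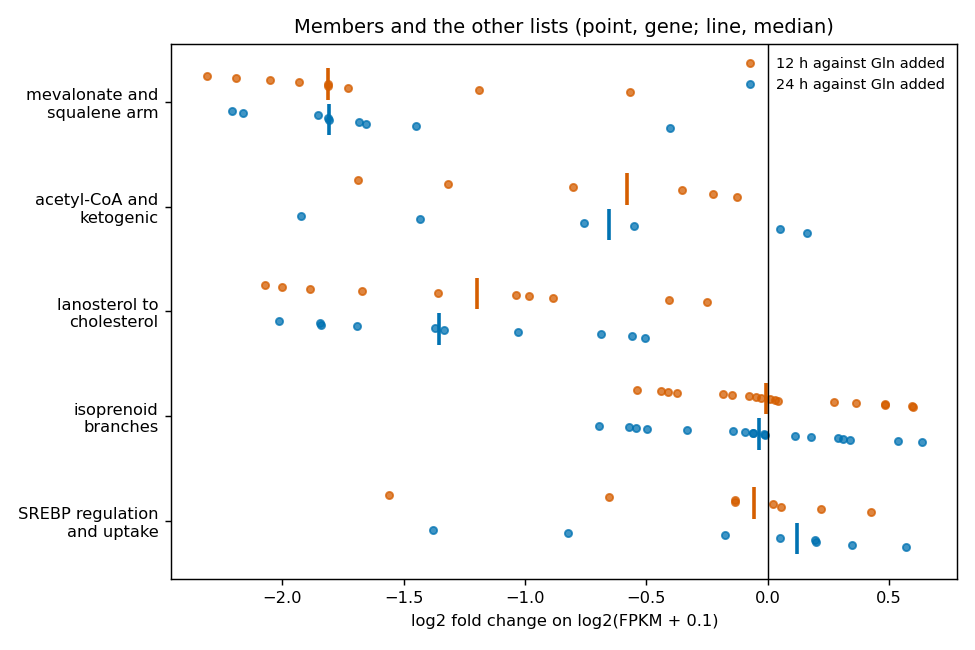
Log2 fold changes on the log2(FPKM + 0.1) scale (horizontal axis) of the 9 members and of the tested genes of the other 4 lists (rows) at 12 h (orange) and 24 h (blue) against Gln added; points are genes and vertical lines are medians. The members have medians of -1.81, the lanosterol to cholesterol genes of -1.20 and -1.35, and the isoprenoid branches of -0.01 and -0.04, beside medians of all genes tested of -0.02 and 0.01.

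Averaged over the 9 members, the profile across the 9 libraries, as log2(FPKM + 0.1) centred on the mean with Gln added, lay between -0.02 and 0.03 in the libraries with Gln added, between -1.74 and -1.72 at 12 h and, at 24 h, between -1.71 and -1.62. MVK (root mean square difference 0.0329) and HMGCS1 (0.0634) were the members closest to this mean profile, and PMVK (0.999), MVD (0.459) and LSS (0.388) the farthest. Each member is part of this mean, which lowers its own distance, so members and other genes are not compared on equal terms. Outside the members NSDHL (0.0649), a decarboxylating enzyme of the lanosterol to cholesterol steps, CDC6 (0.112), a licensing factor of DNA replication, TMEM141 (0.144) and ACAT2 (0.150) were among the closest of the genes tested. This likeness was measured over 9 libraries in 3 groups, so it chiefly reflects genes with a similar fall at both times.

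Several members start close to a gene on the other strand, and these neighbours did not share one response. MMAB, an adenosyltransferase of cobalamin metabolism whose start lies 325 bases from that of MVK with a short overlap between both genes, fell from 9.04 ± 0.639 FPKM to 3.96 ± 0.272 FPKM at 12 h and 3.63 ± 0.0315 FPKM at 24 h, log2 fold changes of -1.17 and -1.29. Exons of MMAB cover 2.50% of the exonic bases of MVK. SNAI3-AS1, a noncoding gene that starts 137 bases from MVD, went from 1.06 ± 0.0849 FPKM to 0.320 ± 0.0151 FPKM and 0.529 ± 0.112 FPKM, log2 fold changes of -1.46 (SE 0.17) and -0.89 (SE 0.17) on 28 to 114 fragments per library. At this low level the size depends on the pseudocount, and with 1 FPKM the log2 fold changes of SNAI3-AS1 were -0.64 and -0.43.

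WDR37, whose start lies 419 bases from that of IDI1, changed little, with log2 fold changes of -0.19 (limma adjusted p = 0.0383) and -0.10 (limma adjusted p = 0.249). Its call at 12 h held under 10 of 19 alternatives and was lost without replicate 1 (-0.13) or 3 (-0.21) with Gln added, without replicate 1 (-0.20) or 2 (-0.13) at 12 h or without replicate 3 at 24 h (-0.19). MCM3AP-AS1, which starts 372 bases from LSS, was at -0.26 and 0.00 and was not called at either time, and SQLE-DT, 299 bases from SQLE, had at most 5 fragments in a library and was not tested. The falls of MVK and MVD were thus accompanied by falls of their neighbours, and those of IDI1 and LSS were not matched in size by theirs.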

How the data were processed

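RNA-seq of 9 HepG2 libraries in 3 groups was analysed. The values deposited by the authors are FPKM, and according to their methods the reads were aligned to GRCh38 with STAR and tested with DESeq2. The submitters' processing notes also name HTSeq and R 3.2.0. The methods describe strand-specific libraries with another kit than the labels, and strand use in counting is not given in the sources used here. Because FPKM are not counts, the linear model of limma 3.58.1 (R 4.3.3), moderated by eBayes with trend, was used on log2(FPKM + 0.1), a scale that understates the changes of low genes, with all 9 libraries in 1 fit. The test covered genes that averaged 0.5 FPKM or more, with p-values adjusted by Benjamini-Hochberg over all of them. Fragments were recovered from the steps of the FPKM for 100% of genes, and the steps were tested on simulated data. Members, lists and naming rule were chosen with earlier results of these data known. The rule named the members, and the 2 lowest and the highest gene of each list at each time. It also named neighbours with starts within 5 kb on either strand, and the 6 closest profiles. A few genes named by this rule are left out of the text. The 19 alternatives varied the pseudocount, the filter, the scaling, the groups in the fit, the trend and the replicate block, used limma's voom on the fragments, or left out each library in turn. Positions come from GENCODE v44.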

Additional observations from a re-analysis of the deposited data

Results flagged for a closer look

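FDPS differed between the times of deprivation in the direct limma test, with a log2 difference of -0.26 at 24 h against 12 h. FDFT1 differed in the same test in the opposite direction, with a log2 difference of 0.12. With 3 libraries per group no single library was tested as an outlier.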

How the results depend on the processing

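The log2 fold changes of the 9 members against Gln added kept their direction and their call in 171 of 171 values at 12 h and in 171 of 171 at 24 h, over 9 members and 19 alternatives. Between the times the number of members called as higher, 1 as reported, was 2 with a mean of at least 1 FPKM or with FPKM rescaled to the same total, 0 with median-ratio scaling, with only the groups compared in the fit or without a trend in eBayes, 3 with voom, and from 0 to 2 when 1 library was left out. FDPS stayed lower at 24 h than at 12 h, from -0.30 with median-ratio scaling to -0.21 without replicate 2 at 24 h. For SQLE the difference of 0.00 turned to -0.0339 with median-ratio scaling and ranged from -0.0108 to 0.0196 when single libraries were left out. For LSS it turned to -0.00541 with median-ratio scaling and ranged from -0.00258 (without replicate 1 at 24 h) to 0.0615. MCM3AP-AS1 at 24 h turned to -0.0092 with median-ratio scaling and -0.00641 with voom, and ranged from -0.0926 to 0.199 without single libraries. None of the values of SQLE, LSS and MCM3AP-AS1 passed the test. Causes of these changes were not tested. Depth limits PMVK most, on 353 to 695 fragments.

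With the replicate number as a block, 3 members were called as higher at 24 h than at 12 h (HMGCS1, IDI1 and FDFT1). The numbers were not taken to pair the libraries, since the deviations of libraries with the same number at 12 h and 24 h correlated at 0.252, -0.136 and 0.283. The block changed no other call of the members.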
